A study of Rattus norvegicus with 9 samples.

Results

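Aquaporins are a family of membrane channels that let water, and in some members glycerol or other small solutes, cross the cell membrane. The 8 aquaporin genes Aqp1, Aqp3, Aqp4, Aqp5, Aqp7, Aqp8, Aqp9 and Aqp11 were followed in cultured rat Sertoli cells. They were chosen as every probe whose gene name in the scan files of replicate 1 or 3 was one of these symbols, which gave 11 of the 41012 probes of the array and 8 of its 35359 gene names. Sertoli cells, which line the seminiferous tubule and feed the developing germ cells, came from testes of rats aged 5, 12 and 60 days, with 3 arrays per age and 9 in all. Every culture had been kept for 4 days in defined medium and then given 50 ng/ml oFSH and 1e-07 M testosterone in pulses over 11 h, so the 3 ages share the hormones and there was no culture without them. The labels name neither strain nor genotype. They do not say whether replicates were separate animals or cultures, so p values reflect only how far these arrays of an age lay apart, which may be technical.

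Water moves through aquaporins along osmotic gradients. In the seminiferous tubule, Sertoli cells secrete ions that water follows into the lumen, where the fluid carries sperm out of the testis, and late spermatids lose much of their cytoplasm and water. Aqp3, Aqp7 and Aqp9 are aquaglyceroporins, which also pass glycerol; Aqp8 also passes ammonia and hydrogen peroxide; Aqp11 is a distant member found in the membrane of the endoplasmic reticulum; Aqp1, Aqp4 and Aqp5 are selective water channels. In testis, Aqp7 is known from spermatids, and Aqp8 has been described in germ cells and Sertoli cells.

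At 60 days, cultures had clear signal for Aqp7, Aqp8, Aqp9 and Aqp11, and the first 3 of these lay below the detection level on all 6 arrays of 5 and 12 days. Aqp8 was at least 217-fold and Aqp9 at least 38.7-fold higher at 60 than at 12 days. Aqp3 had another pattern in time, with signal at 12 days only, at least 3.84-fold higher than at 5 days and at least 5.78-fold lower at 60 than at 12 days. Aqp5 stayed near the detection level, Aqp1 was present with no called difference between ages, and Aqp4 was not above background on any array. Markers of spermatocytes and spermatids were also highest at 60 days, and their part in these differences was not tested.

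All values are log2 levels after division by the array's own 75th percentile of signal, so that 0 marks that percentile, and levels of different probes are not set against each other. A probe was called well above background by the scanner software. The dimmest probe so called lay between -4.76 and -3.32 on this scale, depending on the array. Of the probes of an array, 49.1% to 63.0% were well above background, and the 75th percentile lay between 149 and 435 intensity units. Replicate 3 of 12 days stood apart from the other 8 arrays, with the lowest share of probes above background and the highest detection level. The Sertoli markers of the culture were present at every age: 12, 13 and 14 of 14 were well above background on all 3 arrays at 5, 12 and 60 days. Arrays of one replicate number shared a slide, on which each age always took the same place, so an effect of place cannot be told apart from one of age.

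The first 30 bases of 1 probe per gene are given here, since they define which part of each transcript the values describe. Positions are those of the whole probe in rn4, as the files give them, and every probe has 60 bases.
Aqp3 probe, chr5:58501847-58501906, minus strand: tgatcctcaactaggggctgtgtatgtaat
Aqp7 probe, chr5:58433937-58433996, minus strand: gggtgcctacttaggtggcattgtatacct
Aqp9 probe, chr8:75611562-75611621, minus strand: ggtgattgctaagaattttgaaacttgacc
Aqp8 probe, chr1:182336005-182336751, plus strand: aggctcttcattggagatgagaaaacccgc
Aqp11 probe, chr1:154974018-154974077, minus strand: gctgcacaacaaccaactgagtaacaagaa
Aqp1 probe, chr4:84110125-84110184, plus strand: ccactggcatagtacagctgcatactcttc
Aqp5 probe, chr7:138340966-138341024, plus strand: agaatgtctgccacagctcagacctcagag
Aqp4 probe, chr18:6628415-6628474, minus strand: agtcggaaggtgataaccttcaacaaacat
The Aqp8 probe covers 747 genomic bases and so bridges an intron. No other of these probes spans more than 60 genomic bases. Over the 99 pairs of probes of different aquaporins, the longest run of identical bases was 9, so the probes share no long stretch. The other 3 Aqp4 probes lie close by on chromosome 18, and none of the 4 was above background.

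**Figure D1:**
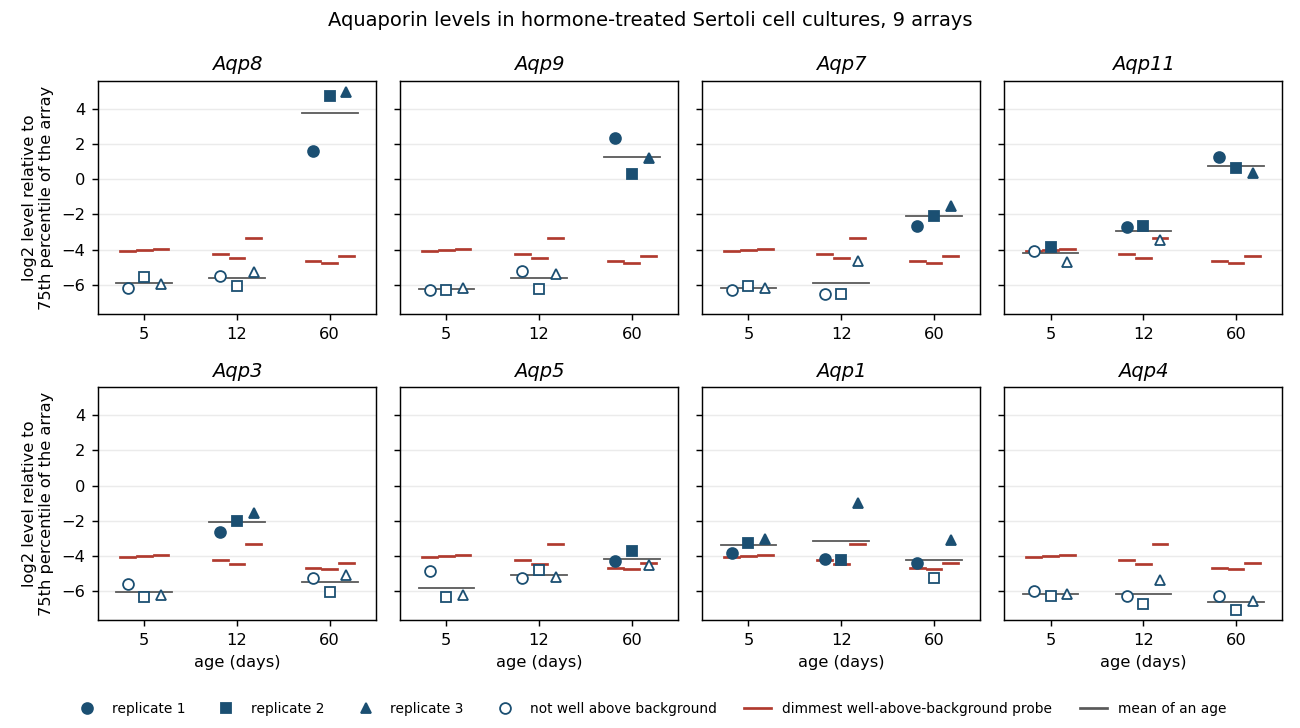
Log2 level against the array's 75th percentile (vertical axis) at 5, 12 and 60 days (horizontal axis) for the 8 aquaporins, with 1 point per array, filled where the probe was well above background. Grey lines are means of an age and red lines the dimmest probe well above background on that array; the Aqp4 panel shows its probe with 10 spots, which is open on all 9 arrays, while Aqp7, Aqp8 and Aqp9 are filled at 60 days and Aqp3 at 12 days.

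Among the aquaglyceroporins, Aqp9 read -6.28, -6.31 and -6.19 at 5 days, -5.21, -6.27 and -5.40 at 12 days, and 2.31, 0.28 and 1.19 at 60 days. The 60-day values did not overlap those of either earlier age, and no array of 5 or 12 days was above background. The log2 difference was 6.88 ± 0.50 (SE of the fit, n = 3 arrays per age) at 60 against 12 days and 7.52 ± 0.50 at 60 against 5 days, with limma adjusted p = 8.25e-06 and 1.72e-06. Because the earlier ages only bound the level, the folds are given as at least 38.7 and at least 38.6.

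Aqp7, the glycerol channel of spermatids and adipocytes, read -6.29, -6.05 and -6.17 at 5 days and -6.50, -6.50 and -4.63 at 12 days. At 60 days it read -2.66, -2.08 and -1.54, above every array of the earlier ages. The difference was 3.78 ± 0.51 at 60 against 12 days (adjusted p = 0.000341) and 4.08 ± 0.51 at 60 against 5 days (adjusted p = 0.000105), which correspond to at least 3.79-fold and at least 3.78-fold. Replicate 3 of 12 days was the highest of its age, and without it the difference to 12 days was 4.41. With normexp background correction, which could be run on the 6 arrays of replicates 1 and 3 only, the differences were 0.40 and 0.70 and neither was called.

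Aqp3, known from the basolateral membrane of kidney collecting duct and from skin, read -5.60, -6.33 and -6.22 at 5 days, -2.62, -2.04 and -1.55 at 12 days and -5.24, -6.06 and -5.06 at 60 days. It was well above background on the 3 arrays of 12 days and on no other. Cultures of 12 days exceeded those of 5 days by 3.98 ± 0.41 (adjusted p = 0.000177), and cultures of 60 days lay below those of 12 days, with a difference of -3.38 ± 0.41 (adjusted p = 0.000161). With normexp the difference of 12 against 5 days was 0.95 and not called (adjusted p = 0.189). Between 60 and 5 days both ages were below background and no fold is given.

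Aqp8 read -6.20, -5.57 and -5.97 at 5 days, -5.52, -6.05 and -5.29 at 12 days, and 1.58, 4.70 and 4.97 at 60 days. All 60-day arrays were far above all others, and replicate 1 was the lowest of them. The difference was 9.37 ± 0.74 at 60 against 12 days (adjusted p = 1.31e-05) and 9.66 ± 0.74 at 60 against 5 days (adjusted p = 3.95e-06), at least 217-fold in both. Replicate 1 of 60 days moves these values: without it they were 10.45 and 10.75, and without replicate 3 of 60 days 8.76 and 9.05. Within the slides, the difference of 60 against 12 days was 7.10, 10.75 and 10.26 for replicates 1, 2 and 3. Replicates 1, 2 and 3 of 60 days had a summed level of peritubular and fibroblast markers of 172, 71.4 and 35.9, and one of Sertoli markers of 296, 314 and 289. Their part in the spread of Aqp8 was not tested.

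Aqp11 was measured at all 3 ages. It read -4.07, -3.88 and -4.68 at 5 days, with 1 of 3 arrays above background, and -2.71, -2.67 and -3.48 at 12 days, with 2 of 3. At 60 days it read 1.26, 0.65 and 0.36 on arrays that were all above background. No 2 ages overlapped. At 60 days it was 13.1-fold above 12 days (log2 difference 3.71 ± 0.39, adjusted p = 6.65e-05) and 31.2-fold above 5 days (4.96 ± 0.39, adjusted p = 4.21e-06). Both folds rest in part on readings of the earlier ages that were not above background. Between 12 and 5 days the difference was 1.26 ± 0.39 and was not called (adjusted p = 0.0598), with a 95% interval of 0.40 to 2.11. That difference was 1.37, 1.20 and 1.20 within the slides of replicates 1, 2 and 3, and with the replicate number as a block it passed the threshold (adjusted p = 0.0143). Without replicate 3 of 12 days it was 1.52 (adjusted p = 0.0464), and with scaling to spike-in controls it was -0.06 (adjusted p = 0.957).

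Of the selective water channels, Aqp1, the channel of red blood cells, capillaries and efferent ducts, was well above background on 8 of 9 arrays, all but replicate 2 of 60 days. It read -3.84, -3.27 and -3.03 at 5 days, -4.15, -4.24 and -0.99 at 12 days, and -4.41, -5.26 and -3.06 at 60 days, and the ages overlapped. The differences were -1.11 ± 0.83 at 60 against 12 days, -0.86 ± 0.83 at 60 against 5 days and 0.25 ± 0.83 at 12 against 5 days, with adjusted p = 0.370, 0.456 and 0.9203. Their 95% intervals were -2.94 to 0.71, -2.69 to 0.96 and -1.57 to 2.07 in the fit without a block. Within the slides of replicates 1, 2 and 3 the difference was -0.25, -1.02 and -2.07 at 60 against 12 days and -0.57, -1.99 and -0.03 at 60 against 5 days, so 60 days read lower on each slide. With the replicate number as a block the SE was 0.53 and neither was called (adjusted p = 0.134 and 0.212). The probe was spotted 10 times on each array and counted as above background where most of its spots were. On replicate 2 of 12 days these were 6 of 10 spots, and on replicate 1 of 5, 12 and 60 days 7, 7 and 8. Its level was near the detection level there, as on replicate 1 of 12 days, with -4.15 beside -4.25. On replicate 3 of 12 days the spots lay between -1.26 and -0.65, with an SD of 0.20, well apart from the 2 other arrays of that age, whose brightest spot read -3.74. Without that array the difference of 12 against 5 days was -0.82 (adjusted p = 0.504), and that of 60 against 12 days was -0.04.

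**Figure D2:**
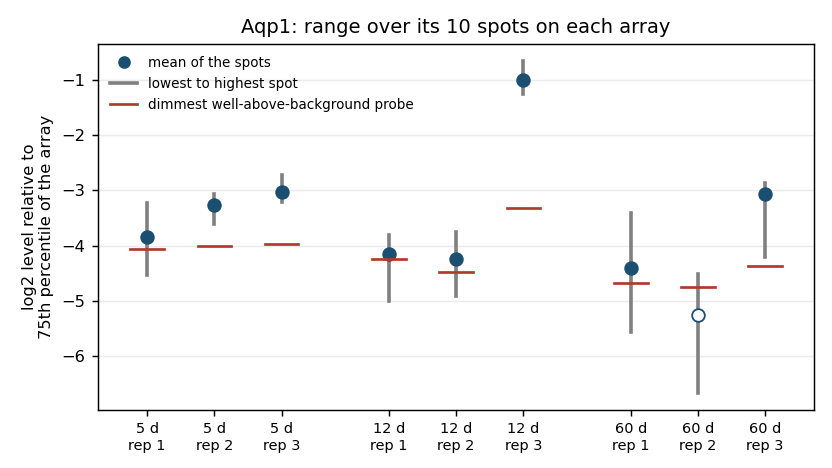
Log2 level of Aqp1 against the array's 75th percentile (vertical axis) on each of the 9 arrays (horizontal axis); points are the mean of the 10 spots, open where not well above background, and grey bars run from the lowest to the highest spot. Replicate 3 of 12 days lies apart from the others with all of its spots between -1.26 and -0.65.

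Aqp5, a water channel of secretory glands and lung, read -4.86, -6.32 and -6.22 at 5 days, -5.22, -4.81 and -5.22 at 12 days and -4.30, -3.69 and -4.51 at 60 days. It was above background on 2 of the 3 arrays of 60 days and on none of the other 6. The difference of 1.63 ± 0.43 at 60 against 5 days was called (adjusted p = 0.0129), but the 60-day mean did not exceed the detection level at 5 days, so that no fold is given. This call was lost when replicate 2 (1.13, adjusted p = 0.201) or replicate 3 (1.59, adjusted p = 0.0704) was left out, without replicate 2 of 5 days (adjusted p = 0.0574) and without replicate 2 of 60 days (adjusted p = 0.0586). It was also lost with spike-in scaling (1.27, adjusted p = 0.378) and turned to -0.36 with normexp. At 60 against 12 days the difference was 0.92 ± 0.43 and was not called (adjusted p = 0.153).

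Aqp4, the water channel of astrocyte endfeet, was below the filter. Its probe with 10 spots read -5.99, -6.28 and -6.16 at 5 days, -6.29, -6.75 and -5.38 at 12 days and -6.26, -7.05 and -6.55 at 60 days, and none of its 4 probes was well above background on any array. A level below the detection limit of these arrays cannot be told apart from no expression.

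**Figure D3:**
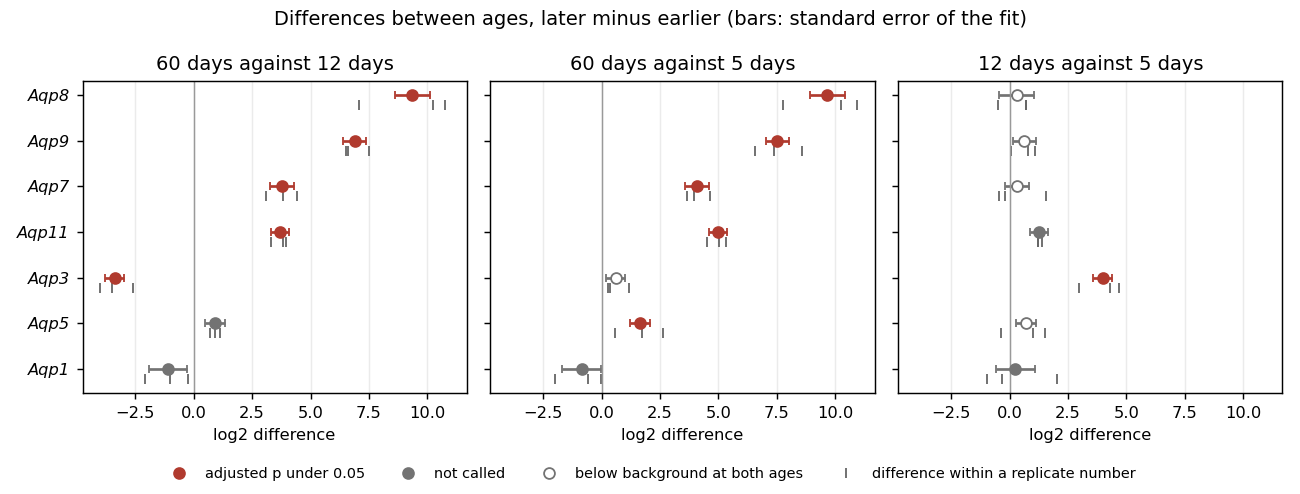
Log2 difference between 2 ages, later minus earlier (horizontal axis), for the 7 aquaporins tested (vertical axis), with the standard error of the fit; ticks are the differences within replicate numbers 1, 2 and 3. Red points are called at an adjusted p under 0.05, and open points are below background at both ages; Aqp8 has the differences farthest from 0, at 9.37 and 9.66.

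The 3 contrasts share arrays and are not independent of each other. Counted together, 7 of the 8 genes passed the filter on dim probes. Aqp3, Aqp5, Aqp7, Aqp8 and Aqp9 passed it through 1 age only, so the following counts describe the members and support nothing further. At 60 against 12 days, 4 rose, 1 fell and 2 were not called, beside 12.2% of all 22458 genes tested that rose and 13.1% that fell (25.3% in either direction). At 60 against 5 days, 5 rose and 2 were not called, beside 17.3% of all genes that rose and 18.1% that fell (35.4% in either direction). At 12 against 5 days, 1 rose and 6 were not called, beside 6.13% of all genes that rose and 6.32% that fell (12.4% in either direction). The 2 ages of a contrast did not overlap for 6, 5 and 2 of the 7 at 60 against 12, 60 against 5 and 12 against 5 days, beside 40.7%, 47.4% and 28.6% of all genes tested. The moderated F-test over the 3 ages called 6 of the 7, all but Aqp1, beside 36.7% of all genes. The pattern of Aqp7, Aqp8 and Aqp9, above background on all 3 arrays of 60 days and on none of the other 6, was shown by 805 genes (3.58% of those tested). That of Aqp3, the same at 12 days, was shown by 25 genes (0.111%).

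Over the 9 arrays, the levels of Aqp7, Aqp8, Aqp9 and Aqp11 correlated at 0.887 to 0.967 in 6 pairs. These correlations are descriptions over arrays that share slides and age groups, and a probe that is bright at 1 age only will correlate with any other of that kind. The genes with the most similar profile were Ldhal6b, Spef2 and Prss42 for Aqp9 (Pearson r of 0.999, 0.997 and 0.996), Allc, Cimip2a and Tbc1d21 for Aqp7 (0.997, 0.996 and 0.995), and Bbox1, C4h12orf71 and Clic3 for Aqp8 (0.993, 0.991 and 0.991). For Aqp11 they were Matcap2, Serpina5 and Morn1 (0.992, 0.991 and 0.991). For Aqp3 they were Schip1, Ccn3 and Cdhr1 (0.986, 0.979 and 0.974), and Ccn3, a secreted matricellular protein, had mean levels of -0.53, 3.29 and -0.30 at 5, 12 and 60 days. The nearest to Aqp5 were Mtcl1, Thyn1 and Zgrf1 (0.955, 0.954 and 0.951), and to Aqp1 Ube2q2, Plekhf2 and Hif1a (0.937, 0.928 and 0.926).

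Because FSH acts through cAMP and testosterone through the androgen receptor, promoters were searched for the half-sites of these pathways and for common core elements, and those of the aquaporins that were called and had an entry are shown, as the 250 bases before the annotated start in RefSeq on GRCr8. The table of promoters matched 7 of the 8 genes, all but Aqp7, and that of Aqp5 is not shown. Capitals mark matches, on either strand, to any of 7 motifs. The cAMP response half-site was searched as TGACG, and the androgen response half-site was searched as AGAACA. The letters for nuclear receptors of the NR5A group were AAGGTCA, and those for SOX factors of the testis were AACAAT. Core elements were the TATA box with the letters TATAAA, the GC box with the letters GGGCGG, and the box named after its own letters CCAAT.
Aqp3 promoter, chr5:61040684-61040933, minus strand: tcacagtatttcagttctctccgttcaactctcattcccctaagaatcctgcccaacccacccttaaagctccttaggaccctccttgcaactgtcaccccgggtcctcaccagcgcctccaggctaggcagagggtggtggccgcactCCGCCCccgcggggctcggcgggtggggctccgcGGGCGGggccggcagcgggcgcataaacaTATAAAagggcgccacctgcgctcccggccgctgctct
Aqp9 promoter, chr8:80718189-80718438, minus strand: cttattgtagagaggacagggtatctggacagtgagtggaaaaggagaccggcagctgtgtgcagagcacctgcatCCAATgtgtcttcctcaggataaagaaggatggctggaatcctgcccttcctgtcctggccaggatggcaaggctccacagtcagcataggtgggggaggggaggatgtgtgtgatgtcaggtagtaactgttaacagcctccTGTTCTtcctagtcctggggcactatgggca
Aqp8 promoter, chr1:187424193-187424442, plus strand: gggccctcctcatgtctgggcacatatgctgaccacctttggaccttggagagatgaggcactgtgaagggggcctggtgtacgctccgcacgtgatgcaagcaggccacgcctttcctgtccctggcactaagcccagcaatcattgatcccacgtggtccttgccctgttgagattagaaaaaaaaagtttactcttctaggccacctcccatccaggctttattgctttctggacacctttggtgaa
Aqp11 promoter, chr1:161467919-161468168, minus strand: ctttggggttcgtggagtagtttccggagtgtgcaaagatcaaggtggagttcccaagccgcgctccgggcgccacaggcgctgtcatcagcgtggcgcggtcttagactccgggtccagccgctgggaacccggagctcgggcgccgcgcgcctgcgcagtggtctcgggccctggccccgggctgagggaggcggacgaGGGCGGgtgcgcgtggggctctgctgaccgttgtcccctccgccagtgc
No 2 matches overlapped in these windows. GC boxes were matched in 5 of the 7 genes, against 30.5% of 33469 promoters of the same length, CCAAT in 2 of 7 against 34.0%, and TATAAA in 2 of 7, Aqp1 and Aqp3, against 12.9%. The androgen half-site was matched in 1 of 7 (Aqp9, on the opposite strand) against 17.5%. TGACG was matched in none, against 18.2% of promoters, nor were AAGGTCA (3.99%) and AACAAT (10.3%). The counts of aquaporins are per gene and the shares are per promoter, and the 33469 promoters belong to 27457 genes. A gene with more than 1 promoter, such as Aqp4, has more than 1 window in which to match. A match is a description of the letters and not a site, and the absence of one says only that these letters are not in this window.

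Of the other aquaporins, Aqp2 and Aqp12a passed the filter, Mip and Aqp6 did not, and Aqp10 was not found by name. Neither of the 2 tested was called in any contrast. Aqp2, the vasopressin-regulated channel of the kidney, had means of -1.30 ± 0.54, -1.25 ± 0.42 and -1.31 ± 0.27 (SD, n = 3 arrays) at 5, 12 and 60 days, and its difference at 60 against 12 days was -0.06 ± 0.38 (adjusted p = 0.932). Its 10 spots had a median SD of 0.20 within an array.

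Genes of glycerol and lipid droplet metabolism, which handle the glycerol that aquaglyceroporins carry, had called members in both directions. Of 12 tested, 2 rose and 3 fell at 60 against 12 days, beside 12.2% and 13.1% of all genes, with a median log2 difference of 0.53 beside -0.16 over all genes. At 60 against 5 days 5 rose and 3 fell, beside 17.3% and 18.1% (median 0.53 beside -0.09). At 12 against 5 days 2 rose and none fell, beside 6.13% and 6.32% (median 0.40 beside 0.05). Gk2, the testis form of glycerol kinase, had the pattern of Aqp7: it was below background on all arrays of 5 and 12 days and read 0.80, -0.11 and 0.98 at 60 days, at least 23.8-fold above 12 days (adjusted p = 5.38e-06) and at least 23.7-fold above 5 days (adjusted p = 1.54e-06). Gk, the widely expressed glycerol kinase, fell instead, with -3.40, -4.03 and -3.33 at 60 days, against -2.24, -2.04 and -1.53 at 12 days (difference -1.64 ± 0.36, adjusted p = 0.0061). Lpl, the lipase that frees fatty acids from circulating triglyceride, fell by 4.69 ± 0.84 on the log2 scale at 60 against 12 days (adjusted p = 0.0020), with -2.84, -6.88 and -6.45 at 60 days, where only replicate 1 was above background, against -0.49, -0.64 and -0.97 at 12 days. Mgll, which releases glycerol from monoglycerides, was higher by 2.42 ± 0.52 on the log2 scale at 60 than at 12 days, and at least 3.03-fold higher at 12 than at 5 days, where no array was above background. Gpd1, which makes glycerol 3-phosphate, was at least 3.13-fold higher at 12 and at least 6.11-fold higher at 60 than at 5 days.

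Genes of tubular fluid ion transport, which sets the gradient that water follows, likewise had called members in both directions. Of 11 tested, 1 rose and 2 fell at 60 against 12 days, 3 rose and 2 fell at 60 against 5 days, and 3 rose and 1 fell at 12 against 5 days, beside 25.3%, 35.4% and 12.4% of all genes called in either direction. The medians were 0.37, 0.48 and 0.32, beside -0.16, -0.09 and 0.05 over all genes. Atp1b1, the beta subunit of the sodium pump, read 3.21, 2.92 and 2.23 at 5 days, 4.77, 5.35 and 4.64 at 12 days and 6.28, 6.002 and 5.42 at 60 days, and was 8.65-fold higher at 60 than at 5 days. The sodium bicarbonate cotransporter Slc4a4 was 8.55-fold lower at 60 than at 12 days and 3.53-fold higher at 12 than at 5 days. Car2, a carbonic anhydrase, was 2.90-fold higher at 60 than at 12 days after having been 5.89-fold lower at 12 than at 5 days. Slc4a7, another bicarbonate cotransporter, and Nherf1, a scaffold of membrane transporters, were 4.03-fold and 3.90-fold higher at 60 than at 5 days.

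Among 14 genes of osmotic and volume response, 1 rose and 1 fell at 60 against 12 days, 3 rose and 1 fell at 60 against 5 days, and 1 fell at 12 against 5 days (medians 0.24, 0.77 and 0.55, beside -0.16, -0.09 and 0.05 over all genes). At each contrast a smaller share of these 14 was called than the 25.3%, 35.4% and 12.4% of all genes. Trpv4, a swelling-sensitive calcium channel, was 6.09-fold lower at 60 than at 5 days, and Lrrc8d, a subunit of the volume-regulated anion channel, was 3.93-fold higher. Wnk1 and Stk39, kinases that control chloride cotransport, were 4.603-fold and 2.48-fold higher at 60 than at 5 days, and Lrrc8c was 2.65-fold lower at 12 than at 5 days. Of 7 genes of the dystrophin complex, which anchors Aqp4 in astrocytes, 1 rose at 60 against 12 days and 2 at 60 against 5 days, and at 12 against 5 days 1 rose and 1 fell (medians -0.28, 0.37 and 0.72). The shares of all genes called are those just given. Agrn was 2.55-fold higher at 60 than at 12 days and 2.80-fold lower at 12 than at 5 days, Utrn was at least 1.26-fold higher at 60 than at 5 days, and Dtna rose at 12 against 5 days by 1.58 ± 0.40 on the log2 scale with no fold to give, since its 12-day mean was under the detection level of 5 days. Spike-in scaling moves the differences of all these genes alike, by 0.96, -0.36 and -1.32 at 60 against 12, 60 against 5 and 12 against 5 days, so the sizes given hold for the 75th percentile scale.

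The markers of other cell types moved with age in the same cultures. Of all genes tested, 12.2% rose and 13.1% fell at 60 against 12 days, and 17.3% and 18.1% at 60 against 5 days. At 12 against 5 days these shares were 6.13% and 6.32%. The counts of called markers that follow stand beside these shares. Summed over each list, in units of the 75th percentile, spermatocyte markers (10 tested) reached 0.14 to 0.17 at 5 days, 5.32 to 5.91 at 12 days and 74.97 to 148 at 60 days. None of these 10 was above background at 5 days, and all 10 rose at 60 against 12 days. Among them Ldhc, a germ cell lactate dehydrogenase, was 335-fold and Sycp3, of the synaptonemal complex, 17.5-fold higher at 60 than at 12 days. Spermatid markers (11 tested) summed to 0.30 to 0.53, 0.35 to 0.49 and 8.43 to 15.0 at 5, 12 and 60 days, and 10 rose at 60 against 12 days, among them Prm1, a protamine (11.2-fold), and Tnp1, a transition protein (67.0-fold, with 1 of 3 arrays of 12 days above background). Spermatogonial markers (4 tested) summed to 8.47 to 11.6, 8.66 to 13.4 and 48.9 to 68.6, at 60 days mostly from Uchl1, a ubiquitin hydrolase, while Gfra1, the GDNF receptor of undifferentiated spermatogonia, was 6.86-fold lower at 60 than at 5 days (2 of the 4 rose and 1 fell). The Sertoli list (14 tested) summed to 36.7 to 38.8, 173 to 197 and 289 to 314, with 9 rising at 12 against 5 days and 5 rising and 1 falling at 60 against 12 days. In RNA from whole cultures, fewer cells of a type and less RNA per cell cannot be told apart.

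Peritubular and fibroblast markers (10 tested) ran the other way in sum, with 519 to 867 at 5 days, 255 to 351 at 12 days and 35.9 to 172 at 60 days. None of the 10 rose in any contrast. At 12 against 5 days 4 fell and 6 were not called (median -0.11), with Col3a1 4.62-fold lower and Col1a1 not called (0.08). At 60 against 12 days 7 fell and at 60 against 5 days 8 (medians -2.63 and -3.53), and Tagln was not called in any contrast. The shares of all genes called are those given for the lists above. Leydig cell markers lay at 18.8 to 31.7 at 5 days, 5.68 to 9.60 at 12 days and 11.5 to 15.6 at 60 days. Their sums do not describe each member. Of the 7 tested, 1 rose and 2 fell at 60 against 12 days, and 1 rose and 4 fell at 60 against 5 days. Star was the one that rose, 1.98-fold and 5.44-fold, while Hsd11b1 was 13.1-fold lower at 60 than at 5 days. In the same order of ages, duct epithelium lay at 20.05 to 30.01, 1.74 to 1.93 and 5.03 to 6.85, macrophages at 5.996 to 9.76, 2.18 to 2.42 and 3.11 to 3.33, and mesothelium at 3.69 to 6.56, 1.67 to 3.74 and 0.87 to 1.66. These sums do not describe each member either. Of 7 duct markers, 3 fell and 4 were not called at 60 against 5 days (median 0.09). Krt7 was lower by 8.47 ± 0.82 on the log2 scale, while Epcam was not called (0.52). Of 8 macrophage markers, 2 rose and 4 fell at 60 against 5 days (median -1.02). Mesothelial markers did not move together, as 2 rose and 2 fell at 60 against 12 days (median 0.76). At 60 against 5 days Lrrn4 was 5.27-fold higher and Msln at least 38.4-fold lower. Endothelial markers lay at 5.54 to 8.98, 8.57 to 15.0 and 1.19 to 3.59, with most of the sum at 12 days from Kdr, a VEGF receptor. At 12 against 5 days none of the 6 endothelial markers rose and 2 fell (median -1.66), among them Ramp2, 4.55-fold lower. Red blood cell markers, of which 3 of 8 were tested, lay at 2.44 to 3.73, 1.65 to 2.51 and 11.5 to 16.0. Most of the red cell sum at 60 days came from Alas2, the first enzyme of haem synthesis in red cells, while Ahsp fell and Hbb did not pass the filter. Like Aqp3, Kdr, the mesothelial marker Gpm6a and the Sertoli marker Inha read higher on all 3 arrays of 12 days than on any array of the other ages. Among the pathway genes named above, so did Slc4a4, Lpl and, near the detection level, Dtna. Gpm6a was 5.04-fold lower at 60 than at 12 days and 8.20-fold higher at 12 than at 5 days, and Kdr was 10.2-fold lower at 60 than at 12 days with no call at 12 against 5 days (adjusted p = 0.118). Of the 5 mesothelial markers tested, 1 rose and 2 fell at 12 against 5 days (median -0.39), with Msln 21.4-fold lower. Inha was 6.59-fold higher at 12 than at 5 days, with no call at 60 against 12 days (adjusted p = 0.287). At 60 days, replicates 1, 2 and 3 had spermatocyte sums of 148, 74.97 and 102 and spermatid sums of 15.0, 9.25 and 8.43. Aqp9 and Aqp11 read highest on replicate 1, where both sums were highest, and Aqp7 and Aqp8 read lowest there. The part of other cells in any aquaporin difference was not tested.

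**Figure D4:**
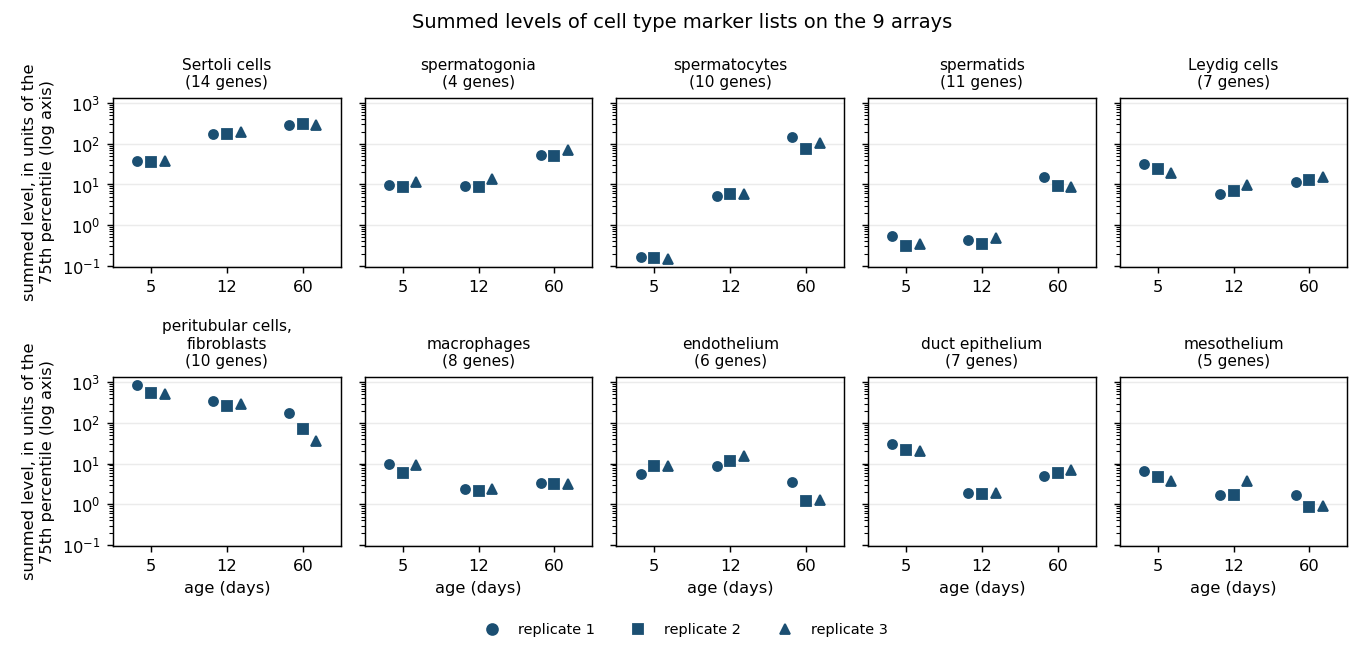
Summed level of the marker genes of 10 cell type lists, in units of the 75th percentile of the array (vertical axis, log scale), at 5, 12 and 60 days (horizontal axis), with 1 point per array. Spermatocyte markers sum to 0.17 or less at 5 days and 74.97 or more at 60 days, while peritubular and fibroblast markers sum to 519 or more at 5 days and 172 or less at 60 days.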

How the data were processed

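Total RNA of 9 Sertoli cell cultures was labelled with Cy3 by oligo-dT priming and hybridised to one-colour Agilent whole-genome rat arrays, per the labels. Spots were read with Agilent Feature Extraction, version 9.5.3.1 for replicate 1 and 10.5.1.1 for replicates 2 and 3, per the file headers. The deposited signal of a spot is an intensity from which the scanner software had taken the background, and arrays were not scaled to each other. The deposited series table holds log2 values, which equal the log2 processed signal minus a constant of the array, close to its 75th percentile, within 0.01 for at least 99.77% of probes. An oligo-dT label measures RNA near the 3' end, and equal RNA input hides differences in RNA per cell.

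Control spots were left out, spots of a probe averaged, and 254 probes with a quality failure dropped. Each array's log2 signals were set against its 75th percentile. A probe was kept if 2 or more of the 3 arrays of an age had it well above background (26599 probes), names were brought to RefSeq symbols by accession (11103 probes), symbol (5602) or synonym (3738) or kept as in the file (20569), and the brightest probe stood for a gene (22458 genes). A mean per age was fitted with limma 3.58.1 in R 4.3.3, with Benjamini-Hochberg adjustment over all genes, and a gene was called at an adjusted p under 0.05. Where an age had no array above background, its level was set per array to the dimmest probe above background, or to its own value if higher, and the fold is written as at least N. On simulated data of 22458 genes for 60 against 12 days, the fit recovered 43% of changes of 2 and 87% of changes of 4 on the log2 scale. In that simulation 100 genes were changed at each size, far fewer than the 5683 called in the data. Its noise was normal, with no detection level and no slide effect, so these shares do not give the sensitivity of the reported fit.

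The members, the 5 pathway lists (other aquaporins, tubular fluid ion transport, glycerol and lipid droplet metabolism, osmotic and volume response, dystrophin complex) and the 11 cell type lists were chosen with earlier results of these data known. All aquaporins were named. From pathway lists called members were named, at most 4 per list and contrast by size of change, or the brightest where none was called; from cell type lists at most 3 by brightness; and for each aquaporin the 3 genes of highest correlation over the 9 arrays. Some genes that this rule names are not reported here. Each replicate number is 1 slide. After removing age means, 2 arrays with a common number had r of 0.181 to 0.601 and other pairs had r of -0.514 to 0.094, so the numbers pair the arrays. The reported fit does not use this pairing. With the replicate number as a block, 7684, 9982 and 3979 genes were called at 60 against 12, 60 against 5 and 12 against 5 days. Without it the counts were 5683, 7946 and 2795. Alternatives were other scalings, background corrections, probe filters and fits, and leaving out arrays. The reference used here held neither a genome nor an annotation of rn4, so no probe is assigned to an exon or untranslated region. Tables and plots were made with Python 3.11.15, pandas 2.3.3, numpy 2.4.6 and matplotlib 3.10.9.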

Additional observations from a re-analysis of the deposited data

How the results depend on the processing

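The calls of Aqp8, Aqp9 and Aqp11 at 60 days against both earlier ages and that of Aqp3 at 60 against 12 days kept their direction and stayed called under all alternatives that tested them (23 each). The filter on probes above background on all 9 arrays left none of the 8 members to test. With normexp on replicates 1 and 3, 3 aquaporins were called at 60 against 5 days, against 5 in the reported fit, 0 by limma at 12 against 5 days (1 of 7, Aqp3, at an unadjusted p under 0.05), against 1, and 3 over the 3 ages, against 6; that setting has fewer arrays and adds an offset of 50, which compresses dim probes. It turned Aqp3 at 60 against 5 days to -0.25 and Aqp5 to -0.24, -0.36 and -0.12 at 60 against 12, 60 against 5 and 12 against 5 days. With the replicate block, and with the slide as a random block, 2 aquaporins were called at 12 against 5 days (Aqp3 and Aqp11); the block changed no other call. Leaving out single arrays or replicates gave 1 to 2 there, 4 to 5 at 60 against 5 days, 5 at 60 against 12 days and 5 to 6 over the 3 ages. Aqp11 was the one gained at 12 against 5 days, without replicate 3 of 12 days or replicate 1 of 60 days.

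Spike-in scaling moved all genes by 0.96, -0.36 and -1.32 on the log2 scale at 60 against 12, 60 against 5 and 12 against 5 days. It turned uncalled differences of 12 against 5 days: Aqp1 to -1.07, Aqp5 to -0.61, Aqp7 to -1.02, Aqp8 to -1.03, Aqp9 to -0.69 and Aqp11 to -0.063. Over all genes it called 2614 higher and 381 lower at 60 against 12 days, against 2751 and 2932, and 90 higher and 2201 lower at 12 against 5 days, against 1376 and 1419. Quantile normalization turned Aqp8 at 12 against 5 days to -0.011. Leaving out arrays gave -0.82 to 0.86 for Aqp1 and -0.33 to 0.67 for Aqp7 at 12 against 5 days. The F-test call of Aqp5 was lost in 11 of its 22 alternatives. Over all genes, the 5683, 7946 and 2795 called at 60 against 12, 60 against 5 and 12 against 5 days moved by over 1.5 times in these settings: 2995 and 4087 at 60 against 12 and 60 against 5 days with spike-in scaling, 3246, 4482 and 1528 with probes above background on all 9 arrays, 2290, 3917 and 772 with normexp, 2768, 4910 and 849 without replicate 2, 3562 at 60 against 12 days and 1539 at 12 against 5 days without replicate 3, and 1552 at 12 against 5 days without replicate 1. Without the filter, Aqp4 was called at 60 against 12 days (-1.64, adjusted p = 0.0118) on a probe below background on every array. For differences not explained above the cause was not tested. Signal over background limits what can be said of Aqp1, Aqp4 and Aqp5, of Aqp7, Aqp8 and Aqp9 at 5 and 12 days, and of Aqp3 at 5 and 60 days. In part it also limits what can be said of Aqp11 at 5 and 12 days.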
